A study of Mus musculus with 8 samples.

Results

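Chemokines are small secreted proteins that steer white blood cells, and their receptors are the G protein-coupled receptors through which those cells read them. This is an account of 48 genes of the chemokine system (32 ligands and 16 receptors) in mouse liver, out of 18193 genes with a probe set of their own on the array. The members were chosen by symbol: every Ccl, Ccr, Cxcl and Cxcr gene with a number, together with Cx3cl1, Cx3cr1 and Xcl1, without Ccl5. Each gene was read by its probe set of highest mean signal, out of 76 probe sets for all members. Pf4 and Ppbp, CXC chemokines of platelets with other kinds of symbols, are described beside them.

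Liver RNA was hybridised to 8 Affymetrix mouse arrays, 2 for each of 4 groups. Wild type (WT) mice were 3, 12 and 19 months old. The fourth group was Sirt1-deficient (MT) mice of 3 months, labelled sirt1 KO, which carried a targeted deletion in the gene of the deacetylase Sirt1 and were, by the account of the study, the minority of null animals that survived to adulthood. All mice shared a mixed 129/FVB/Black Swiss background. Livers were collected in the morning. The sources used here do not say whether the RNA of an array came from 1 mouse or from several. A legend of the paper gives more mice for each group than there are arrays here, while its methods give the number of arrays. The p-values thus reflect the spread between arrays alone, part of which may be technical. In whole liver, fewer cells of a type and less RNA per cell cannot be told apart.

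The labels were checked before the results. The only Sirt1 probe set gave 615 and 713 on the MT arrays, against 589 and 539 on those of WT mice of the same age, a log2 difference of 0.23 (limma, adjusted p = 0.674). The position of that probe set relative to the deleted exons was not examined here, so it does not check the MT label, and "MT" below means the arrays so labelled. Xist lay at or above the 95.2nd percentile of each array and 9 Y-linked probe sets at or below the 43.1st. This is the pattern of female mice, whereas the methods describe male mice, and the sex of the mice was not settled. Hepatocyte markers had summed signals of 363134 to 477128 on all 8 arrays. Array medians lay between 74.5 and 82.8, and the authors' scaling made the trimmed means equal. As a check of RNA quality, control probe sets at the end and the beginning of a transcript were compared. For pyruvate carboxylase the log2 gap was 3.88 to 4.25 on the 3-month arrays of both genotypes. It was 4.54 and 5.10 at 12 months and 5.86 and 4.77 at 19 months (arrays 1 and 2). Over all 8 arrays it was 0.97 to 1.48 for beta-actin and -0.62 to -0.34 for Gapdh. Its part in the values below was not tested.

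Chemokines are classed by the spacing of their conserved cysteines into CC, CXC, C and CX3C families. Some are made steadily and hold resident cells in place, and others are switched on by inflammatory signals through NF-kB or by interferons. In the liver they come from hepatocytes, sinusoidal endothelium, stellate cells, bile duct cells and Kupffer cells, the macrophages of the liver. Most receptors are carried by circulating or resident leukocytes, which are a small part of the tissue.

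The upstream windows of 6 ligands are shown because the array values below turn on these genes: the gene with the largest difference (Cxcl13), the one neutrophil attractant above the median of every array (Cxcl1), a pair of interferon-inducible genes of 1 cluster whose log2 differences in MT mice had opposite signs when all arrays were used (Cxcl9 and Cxcl10), and the CC ligand of lowest p with its neighbour (Ccl9 and Ccl6). Each sequence is the 250 bases before the annotated start, written 5′ to 3′ on the strand of the gene, from RefSeq (GRCm38.p6). Cxcl13 lies at chr5:95956689-95956938 (plus strand), Cxcl1 at chr5:90890995-90891244 (plus strand), Cxcl9 at chr5:92328080-92328329 (minus strand), Cxcl10 at chr5:92348890-92349139 (minus strand), Ccl9 at chr11:83578637-83578886 (minus strand) and Ccl6 at chr11:83593088-83593337 (minus strand). Capitals mark a TATAAA box in Cxcl13, matches to the NF-kB consensus in Cxcl1 and Cxcl10, and the longest run of letters shared by Ccl9 and Ccl6. Nothing is capitalised in Cxcl9, and TATAAA in Cxcl9 and Ccl9 and an NF-kB match in Ccl9 are left in lower case.
Cxcl13: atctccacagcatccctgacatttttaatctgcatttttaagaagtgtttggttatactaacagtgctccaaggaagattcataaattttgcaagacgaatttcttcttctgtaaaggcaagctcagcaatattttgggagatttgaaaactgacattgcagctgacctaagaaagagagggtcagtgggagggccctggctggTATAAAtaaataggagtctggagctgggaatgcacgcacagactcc
Cxcl1: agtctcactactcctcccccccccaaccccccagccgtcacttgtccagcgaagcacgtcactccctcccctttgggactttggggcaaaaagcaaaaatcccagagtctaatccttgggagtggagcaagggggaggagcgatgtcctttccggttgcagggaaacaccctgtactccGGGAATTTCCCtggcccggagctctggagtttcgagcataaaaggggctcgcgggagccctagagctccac
Cxcl9: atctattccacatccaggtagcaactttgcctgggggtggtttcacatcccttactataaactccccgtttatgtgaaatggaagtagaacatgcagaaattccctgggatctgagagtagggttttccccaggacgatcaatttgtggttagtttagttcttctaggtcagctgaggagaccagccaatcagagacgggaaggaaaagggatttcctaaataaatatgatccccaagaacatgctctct
Cxcl10: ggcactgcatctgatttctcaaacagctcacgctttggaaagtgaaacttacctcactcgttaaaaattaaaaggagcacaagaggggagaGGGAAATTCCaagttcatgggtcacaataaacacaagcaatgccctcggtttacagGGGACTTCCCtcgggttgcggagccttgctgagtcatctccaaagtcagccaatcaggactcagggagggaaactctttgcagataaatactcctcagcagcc
Ccl9: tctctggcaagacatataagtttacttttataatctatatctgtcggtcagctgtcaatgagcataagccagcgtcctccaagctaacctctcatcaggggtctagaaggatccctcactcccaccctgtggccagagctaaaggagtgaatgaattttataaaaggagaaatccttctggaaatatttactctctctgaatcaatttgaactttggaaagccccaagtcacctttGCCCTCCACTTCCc
Ccl6: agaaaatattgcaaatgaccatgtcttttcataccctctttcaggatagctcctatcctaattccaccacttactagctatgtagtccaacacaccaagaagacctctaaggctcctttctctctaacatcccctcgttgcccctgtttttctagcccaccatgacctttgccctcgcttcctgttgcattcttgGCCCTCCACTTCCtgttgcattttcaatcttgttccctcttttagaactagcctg

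The TATAAA box of Cxcl13 began 46 bases before its start. In Cxcl1 a single stretch, GGGAATTTCCC, held 2 overlapping matches to the NF-kB consensus that began 71 and 70 bases before the start. Cxcl10 had 2 separate matches, GGGAAATTCC at 159 bases and GGGACTTCCC at 103 bases. Cxcl9, of the same cluster on chromosome 5, had no match to the NF-kB consensus in this window. Ccl9 and Ccl6, which are neighbouring protein-coding genes on chromosome 11, shared a run of 13 bases, GCCCTCCACTTCC, which began 14 and 55 bases before their starts. The 2 windows were identical at 56.2% of aligned positions without gaps.

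A RefSeq window was available for 36 of the 48 members. The NF-kB consensus, searched on both strands, was found in 8 of them (22.2%), namely Ccl20, Ccl9, Ccr3, Ccr6, Cxcl1, Cxcl10, Cxcl2 and Cxcl3, against 4.46% of all 27025 genes with a window. TATAAA, counted on either strand and anywhere in the window, was present in 11 members (30.6%) and in 14.3% of all genes. The interferon-stimulated response element, also on either strand, was found in 2 members (5.56%, against 3.46%), which were Cxcl10 and Cxcl14. Matches of different motifs were allowed to overlap. A match is a description of letters and not a bound site.

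Most of the system gave little signal in these livers. On all 8 arrays 26 of the 48 members lay below the median probe set of the array, among them 11 of the 16 receptors. The 10 members that lay above it on every array were all ligands: Ccl6, Ccl9, Ccl24, Ccl27a, Cxcl1, Cxcl9, Cxcl11, Cxcl12, Cxcl13 and Cxcl16. A filter that kept the upper 50% of probe sets by mean log2 signal (22519 probe sets) left 15 members to test, of which 13 were ligands and 2 receptors (Ccr2 and Cxcr3). The other 33 members had signals of 0.504 to 138. Nearest to the filter were Cxcr3 inside it (mean log2 signal 6.67) and Ccl8 outside it (6.02).

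**Figure D1:**
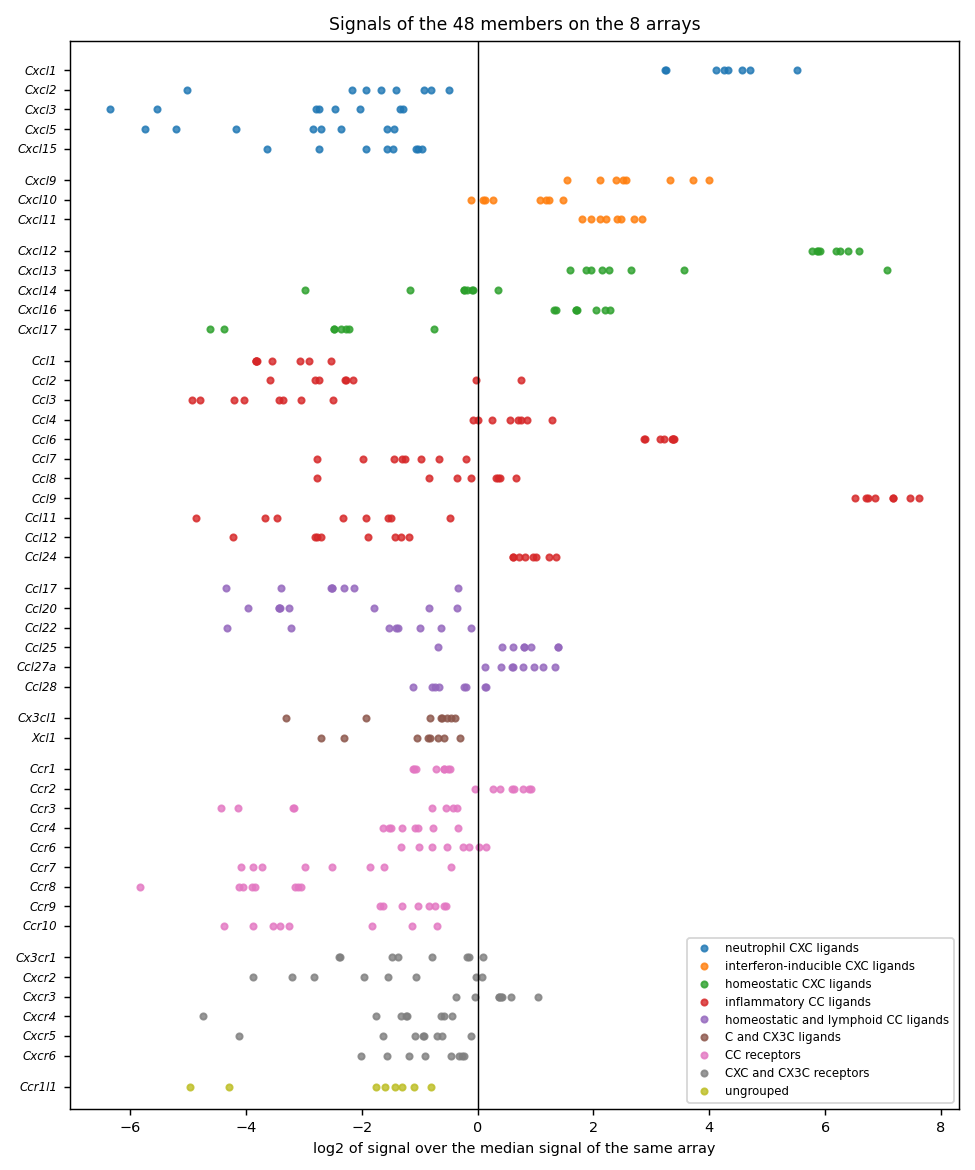
Log2 of the signal of each of the 48 members over the median signal of the same array, with 1 point for each of the 8 arrays, signals below 1 set to 1, and colours for the role groups. The line at 0 is the array median. All 8 points lie to its right for 10 ligands and to its left for 26 members, and levels of different probe sets do not compare amounts of RNA.

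By role, all 3 interferon-inducible CXC ligands were tested, against 1 of the 5 neutrophil CXC ligands, 3 of the 5 homeostatic CXC ligands, 4 of the 11 inflammatory CC ligands and 2 of the 6 homeostatic and lymphoid CC ligands. Neither Xcl1 nor Cx3cl1 passed the filter. Of the receptors, 1 of 9 CC receptors and 1 of 6 CXC and CX3C receptors were tested. Ccr1l1, which was placed in no role group, was not tested.

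None of the 15 tested members passed the test in any of the 4 comparisons (limma, adjusted p under 0.05 over all 22519 probe sets). Among all probe sets the percentage called was 0.515 for MT against WT mice at 3 months, 0.0133 for 12 against 3 months, 0.0355 for 19 against 3 months and 0 for 19 against 12 months. The lowest adjusted p of a member was 0.134, 0.302, 0.244 and 0.297 in these comparisons. At an unadjusted p under 0.05 there were 3, 2, 2 and 2 members, or 20%, 13.3%, 13.3% and 13.3% of the 15, where 13.5%, 8.57%, 12.5% and 10.7% of all probe sets reached it. The test named in the methods of the study, with its 1.5-fold limit, passed 1, 0, 1 and 1 of the 15 members before adjustment, where 3.95%, 2.23%, 3.33% and 2.33% of all probe sets passed. After adjustment it passed 0 members and 0 probe sets. Without the filter on low signals, limma called 0 of the 48 members, with 0.242%, 0.00666%, 0.0178% and 0.00666% of all 45037 probe sets called. At an unadjusted p under 0.05 there were then 4, 3, 2 and 5 members, or 8.33%, 6.25%, 4.17% and 10.4%, where 9.91%, 7.15%, 8.89% and 8.05% of all probe sets reached it. The differences below are therefore values, and none is a call. The first 3 comparisons share the 2 WT arrays of 3 months, so that a high or low value on those arrays enters all of them.

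**Figure D2:**
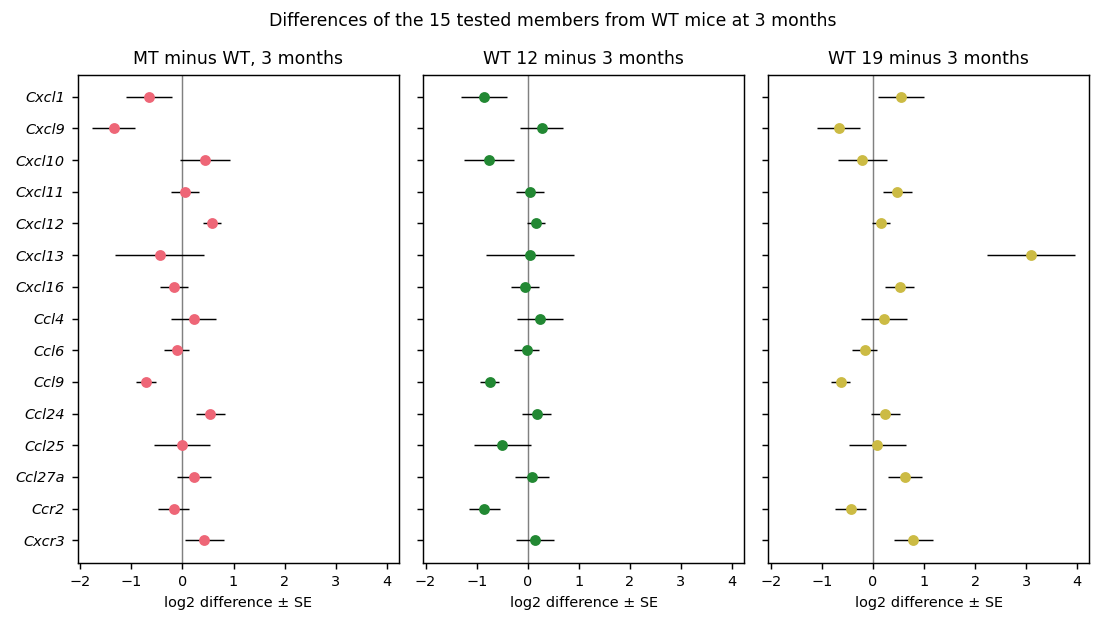
Log2 difference (limma estimate, bars 1 SE) of the 15 tested members from WT mice at 3 months, in MT mice of 3 months and WT mice of 12 and 19 months. Cxcl13 at 19 months stands at 3.09, and Ccl9 lies below 0 in all 3 panels, which share the same 2 control arrays.

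Ccl9, a rodent CC chemokine that acts through Ccr1, was the member with the highest mean signal. Its signals were 15629 and 14483 at 3 months, 10797 and 7465 at 12 months and 11009 and 8589 at 19 months on the WT arrays, with 8728 and 9630 on the MT arrays. All 6 other arrays lay below both WT arrays of 3 months, and the 3 other groups overlapped each other. The log2 difference was -0.71 ± 0.19 (SE, n = 2 against 2) in MT mice (adjusted p = 0.134 by limma), -0.74 ± 0.19 at 12 months (0.302) and -0.63 ± 0.19 at 19 months (0.260). The log2 difference between 19 and 12 months was 0.12. A second probe set, with signals of 11269 and 9905 on the WT arrays of 3 months and 4825 to 7806 elsewhere, gave -0.60, -0.84 and -0.53 (log2) against 3 months.

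Ccl6, the neighbouring gene and another ligand of Ccr1, did not show that pattern. Its signals were 705 and 853 at 3 months, 697 and 838 at 12 months and 561 and 859 at 19 months on the WT arrays, with 840 and 612 on the MT arrays, so that all groups overlapped. Its log2 difference from 3 months was -0.11 ± 0.25 in MT mice, -0.021 ± 0.25 at 12 months and -0.16 ± 0.25 at 19 months. A second Ccl6 probe set gave -0.080 ± 0.35, 0.30 ± 0.35 and 0.19 ± 0.35, of the opposite sign at 12 and 19 months. Its 19-month arrays were at 206 and 437. The difference between the 2 genes was not tested. Ccr1, their receptor, had signals of 37.3 to 58.8 over the 8 arrays, below the median of every array. Kupffer cell and macrophage markers, 14 genes that were all tested, had summed signals of 29423 and 28811 at 3 months, 25725 and 27471 at 12 months and 34435 and 52473 at 19 months on the WT arrays, with 22412 and 24937 on the MT arrays. Compared with young WT mice the sum was thus lower in MT mice and at 12 months, and higher at 19 months, when Ccl9 was at 9724 (geometric mean) against 15045. None of the 14 was called in any comparison, although all 14 lay above 0 at 19 against 3 months, with a median log2 difference of 0.57. In MT mice and at 12 months 10 lay below 0 and 4 above. Among those above was Cd163, at 1003 in MT mice and 1083 at 12 months against 649 at 3 months (geometric means). The part of these cells in the Ccl9 values was not tested.

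Of the other inflammatory CC ligands only Ccl24 and Ccl4 were tested. Ccl24, an eosinophil attractant that binds Ccr3, had signals of 164 and 211 in MT mice against 121 and 134 in WT mice of 3 months, which did not overlap. The log2 difference was 0.55 ± 0.29 (limma, adjusted p = 0.451). Ccl4, which attracts macrophages and T cells, ranged from 78.2 to 185 and overlapped between all groups. Ccl2, the main monocyte attractant, stayed at 6.37 to 18.4 on 6 arrays and stood at 80.2 on array 2 of 12 months and 138 on array 2 of 19 months. Its mates in those groups were 11.2 and 6.37, so that each of these pairs was further apart than any of the geometric means of the groups. Ccl2 was not among the tested members.

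**Figure D3:**
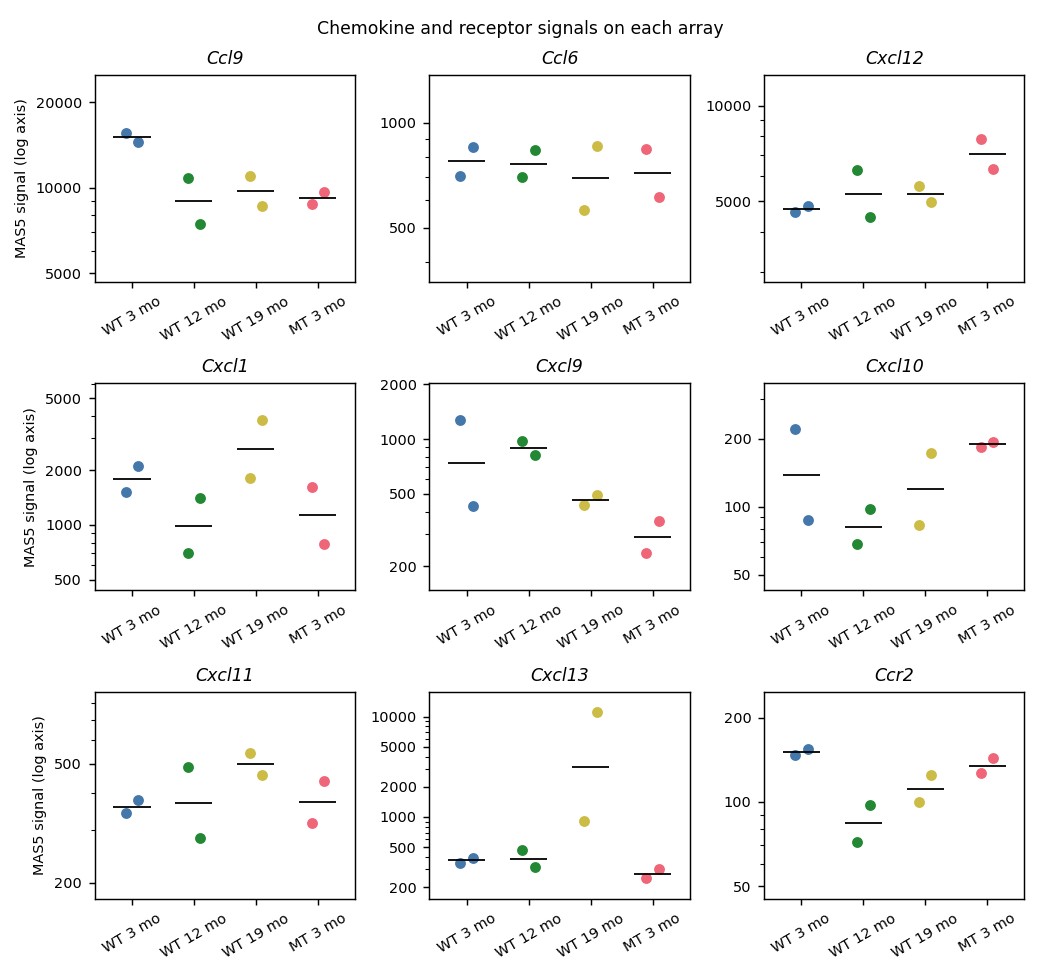
MAS5 signal (log axis, separate scale for each gene) of 9 members on each array. Points are arrays, 2 for each group, and lines are geometric means. For Ccl9 both WT arrays of 3 months lie above the other 6 arrays, and for Cxcl13 a single array of 19 months stands at 11088.

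Cxcl12, a steadily made ligand of Cxcr4 that retains blood-forming and lymphoid cells, gave signals of 4626 and 4822 at 3 months, 6257 and 4458 at 12 months and 5583 and 4964 at 19 months on the WT arrays, with 7842 and 6311 on the MT arrays. Both MT arrays lay above all 6 WT arrays. The log2 difference was 0.57 ± 0.18 in MT mice (limma, adjusted p = 0.205), 0.16 ± 0.18 at 12 months and 0.16 ± 0.18 at 19 months. A second Cxcl12 probe set, at 5957 and 5804 in MT mice against 4775 and 4843 in WT mice of 3 months, gave a smaller log2 difference of 0.29. Cxcr4 was below the array median on all 8 arrays, with signals of 3.05 to 61.0.

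Cxcl13, which binds Cxcr5 and draws B cells into lymphoid follicles, had the largest differences of any tested member. Its signals were 352 and 394 at 3 months, 469 and 316 at 12 months and 902 and 11088 at 19 months on the WT arrays, with 245 and 303 on the MT arrays. Both 19-month arrays lay above the other 6, but they differed from each other 12.3-fold. The log2 difference was 3.09 ± 0.86 between 19 and 3 months (limma, adjusted p = 0.244) and 3.04 ± 0.86 between 19 and 12 months (0.297). Without array 1 of the 19-month group it was 4.90 against 3 months (adjusted p = 0.000873), and without array 2 it was 1.28 (0.294). The same values against 12 months were 4.85 (0.00111) and 1.23 (0.487). In the fits without array 1, 0.0311% of all probe sets were called against 3 months and 0.0178% against 12 months. A call for Cxcl13 was therefore made only where array 2 stood alone for its group, and its spread was then taken from the other groups.

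The second probe set of Cxcl13 showed the same 2 arrays apart, at 675 and 7129, with 226 to 356 on the other 6. The difference between both 19-month arrays was 3.62 on the log2 scale for the first probe set and 3.40 for the second, and these were the 2 largest in that direction among all 22519 tested probe sets. Cxcr5 was low on all 8 arrays, at 4.68 to 73.6. B and plasma cell markers, 7 measured and 6 tested, had summed signals of 1231 and 1575 at 3 months, 5073 and 3917 at 12 months and 8638 and 7854 at 19 months on the WT arrays, with 1278 and 1900 on the MT arrays. The sum was thus close on both 19-month arrays, and its highest genes were the immunoglobulin chains Igha (2459 and 3514) and Ighm (4317 and 1986). Igha rose by 2.49 at 12 months (limma, adjusted p = 0.00902) and by 3.34 at 19 months (0.000650) on the log2 scale, 0 other genes of the list were called, and the B cell receptor gene Cd79a was below the median of all 8 arrays. The macrophage sum was higher on array 2 of 19 months (52473) than on array 1 (34435), and the macrophage receptor Marco was at 1211 there and at 169 on array 1. Their part in the Cxcl13 signal was not tested.

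**Figure D4:**
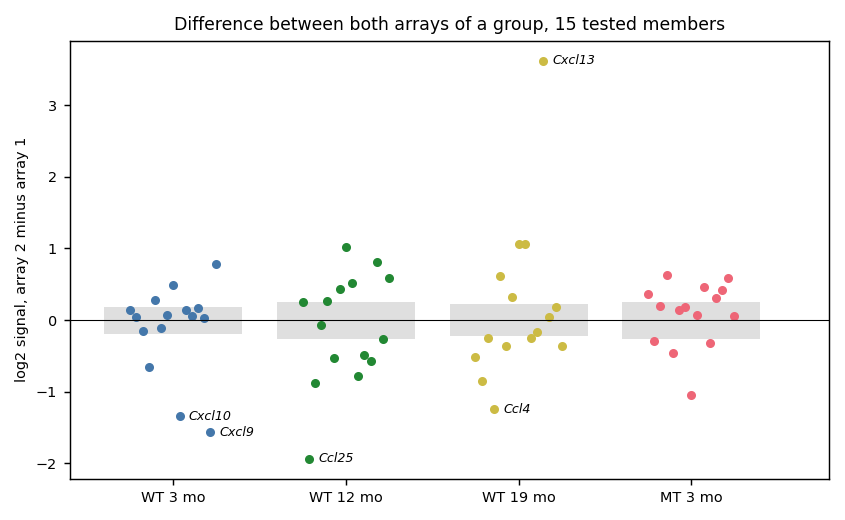
Log2 signal of array 2 minus array 1 within each group, for the 15 tested members. Each point is a member, names are given beyond 1.2, and the grey band spans plus and minus the median size of that difference over all tested probe sets. Cxcl13 in the 19-month pair lies at 3.62, and most other members lie between -1 and 1.

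The spread between both arrays of a group was wider for the members than for all probe sets in 3 of the 4 groups. The median size of the log2 difference within a pair was 0.15 for the members and 0.19 for all probe sets in WT mice at 3 months, 0.53 and 0.26 at 12 months, 0.36 and 0.22 at 19 months, and 0.31 and 0.26 in MT mice. Ccl25, which binds Ccr9 and is best known from thymus and gut, was furthest apart at 12 months, with 195 and 50.8. Its second probe set did not show this gap, with 115 and 102 on the same arrays. Cxcl16, a membrane-bound ligand of Cxcr6, had signals of 371 and 381 at 19 months, against 260 and 265 at 3 months, 191 and 336 at 12 months and 202 and 269 on the MT arrays. Its 19-month arrays lay above the other 6, with a log2 difference from 3 months of 0.52 ± 0.28 (limma, adjusted p = 0.498) and of 0.68 in its second probe set. On that probe set the 19-month arrays were less even, at 293 and 501.

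Cxcl1, which attracts neutrophils through Cxcr2, gave signals of 1510 and 2124 at 3 months, 699 and 1411 at 12 months and 1812 and 3782 at 19 months on the WT arrays, with 1627 and 789 on the MT arrays. On this probe set the 12-month arrays lay below those of 3 and of 19 months, and the 19-month arrays overlapped those of 3 months. The log2 difference between 19 and 12 months was 1.40 ± 0.45 (limma, adjusted p = 0.330), and 1.45 and 0.75 in its 2 other probe sets. The last of these gave 661 and 643 at 3 months, 298 and 670 at 12 months and 693 and 816 at 19 months. There the 12-month arrays overlapped those of 3 months, and the 19-month arrays lay above those of 3 months. Against 3 months the log2 difference on the first probe set was -0.66 ± 0.45 in MT mice, -0.85 ± 0.45 at 12 months and 0.55 ± 0.45 at 19 months. Array 2 of each pair was the higher at 12 months (2.02-fold) and at 19 months (2.09-fold).

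The other neutrophil ligands, Cxcl2, Cxcl3, Cxcl5 and Cxcl15, lay below the array median on all 8 arrays, at 0.504 to 52.7. Their receptor Cxcr2 had signals of 11.2 and 8.86 at 3 months, 19.1 and 79.4 at 12 months and 5.22 and 28.4 at 19 months on the WT arrays, with 38.8 and 86.8 on the MT arrays. Both MT arrays lay above those of WT mice at 3 months and overlapped those of 12 months, near or below the median of the arrays. Neutrophil markers, 8 measured and 4 tested, had summed signals of 1109 and 987 at 3 months, 1062 and 1252 at 12 months and 1812 and 2330 at 19 months on the WT arrays, with 1355 and 1623 on the MT arrays. The higher MT sum rested mostly on S100a8 (529 and 580, against 408 and 361 in WT mice of 3 months) and S100a9 (452 and 661, against 257 and 304). Of the 4 tested markers 3 lay above 0 in MT mice and 1 below. In geometric means Mpo, Ngp and Ltf were also higher in MT mice, and Csf3r, Camp and Elane were lower. No neutrophil marker was called in any comparison, and the part of these cells was not tested.

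The interferon-inducible ligands Cxcl9, Cxcl10 and Cxcl11 lie in 1 cluster on chromosome 5 and bind Cxcr3 on activated T cells and NK cells. Cxcl9 had signals of 1269 and 428 at 3 months, 976 and 813 at 12 months and 434 and 491 at 19 months on the WT arrays, with 237 and 357 on the MT arrays. Both MT arrays lay below all 6 WT arrays. A second probe set, which did not pass the filter, gave 56.4 and 37.7 on the MT arrays. On the WT arrays it gave 177 and 83.5 at 3 months, 82.3 and 81.8 at 12 months and 45.5 and 70.1 at 19 months. Its MT arrays thus lay below those of 3 months but overlapped those of 19 months. On the first probe set the log2 difference between MT and WT mice at 3 months was -1.34 ± 0.42 (limma, adjusted p = 0.208). Without the WT array at 1269 it was -0.56 (0.657), and without the one at 428 it was -2.13 (0.0615). Both WT arrays of 3 months differed 2.97-fold, so the size of this difference rested on which of them was kept.

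Cxcl10 had signals of 221 and 87.5 at 3 months, 68.4 and 97.8 at 12 months and 83.2 and 174 at 19 months on the WT arrays, with 185 and 194 on the MT arrays. Its MT arrays lay between both WT arrays of 3 months, with a log2 difference of 0.45 ± 0.49, of the opposite sign to that of Cxcl9. Without array 2 of 3 months it was -0.22, and the signs were then the same. The difference between the 2 genes was not tested. Cxcl11 had signals of 342 and 378 at 3 months, 486 and 283 at 12 months and 545 and 460 at 19 months on the WT arrays, with 316 and 437 on the MT arrays. Its log2 difference from 3 months was 0.049 ± 0.28 in MT mice, 0.046 ± 0.28 at 12 months and 0.48 ± 0.28 at 19 months. A second probe set gave 0.30 ± 0.40, 0.11 ± 0.40 and -0.024 ± 0.40, so that it did not show the 19-month value of the first. RefSeq lists Cxcl11 as a transcribed pseudogene in the mouse reference genome.

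Cxcr3, the shared receptor, had signals of 61.3 and 105 at 3 months, 72.3 and 109 at 12 months and 157 and 123 at 19 months on the WT arrays, with 106 and 110 on the MT arrays. The 19-month arrays lay above the other 6, with a log2 difference from 3 months of 0.79 ± 0.38 (limma, adjusted p = 0.440). T and NK cell markers, of which 11 were measured and 5 tested, had summed signals of 813 and 1018 at 3 months, 693 and 855 at 12 months and 745 and 678 at 19 months on the WT arrays, with 659 and 621 on the MT arrays. The sum was lowest in MT mice, where Cxcl9 was also lowest, but array 1 of 12 months and array 2 of 19 months were close. Of the 5 tested markers 4 lay below 0 and 1 above in MT mice, against 3 and 2 at 19 months. The lower MT sum rested largely on Gzma and Gzmb. Their geometric means were 55.8 and 88.6 in MT mice, against 228 and 161 in WT mice of 3 months. Cd3g and Nkg7 were also lower in MT mice, and Thy1 was higher (98.1 against 55.8). Among the untested markers Cd3e and Cd8a were higher in MT mice, and Cd3d, Cd2, Cd4 and Ncr1 lower. Cd2, Cd4 and Ncr1 were below the median of every array. No T or NK marker was called, and their part in these values was not tested.

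Of the interferon gamma response genes, 14 were tested, and in MT mice 9 lay below 0 and 5 above. The GTPase gene Gbp6 was called lower in MT mice (276 and 234 against 1036 and 1205, log2 difference -2.14, limma adjusted p = 0.0278), and 0 other genes of the list were called in any comparison. The median log2 difference of the list was -0.22 in MT mice, -0.062 at 12 months and 0.0051 at 19 months, where the median of all probe sets was 0.018, -0.0034 and 0.024. Psmb8 and Psmb9, subunits of the immunoproteasome, and Gbp3 are other genes of the list, with log2 differences of -0.86, -0.91 and -0.86 in MT mice that did not pass. Nearest to a call with age were Gbp6 (-0.95) and Gbp3 (-0.76) at 12 months, Psmb9 (-0.50) and Irgm2 (0.44) at 19 months, and Irgm1 (0.59) and Gbp3 (0.56) between 19 and 12 months, on the log2 scale.

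Ccr2, the receptor that brings monocytes out of the bone marrow, had signals of 147 and 155 at 3 months, 72.1 and 97.4 at 12 months and 99.6 and 125 at 19 months on the WT arrays, with 126 and 143 on the MT arrays. The 6 other arrays lay below both WT arrays of 3 months. The log2 difference was -0.85 ± 0.30 at 12 months (limma, adjusted p = 0.490), and the MT and 19-month values were -0.17 ± 0.30 and -0.44 ± 0.30. Of the 4 probe sets of Ccr2 this was the only one that passed the filter. The others did not share a direction at 12 against 3 months. Their geometric means were 34.0 against 59.5, 61.2 against 38.9 and 12.3 against 3.30. Besides Ccl2, its ligands Ccl7 (11.6 to 70.6) and Ccl12 (4.37 to 36.3) were below the median on all 8 arrays. Of the monocyte and dendritic cell markers only Lyz2 was tested of 8 measured, at 5536 and 5261 at 3 months, 4920 and 3326 at 12 months and 7738 and 12271 at 19 months on the WT arrays, with 3986 and 3527 on the MT arrays. The marker genes Chil3, Cd209a, Xcr1 and Flt3 were below the median of every array.

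Ccl27a, a skin-homing ligand of Ccr10, had signals of 193 and 162 in WT mice of 19 months against 120 and 108 in those of 3 months, with a log2 difference of 0.63 ± 0.33 (limma, adjusted p = 0.488). The arrays of these 2 ages did not overlap, and the 12-month arrays spanned 89.1 to 164. Its probe set may also read near-identical copies of the gene. The receptor Ccr10 had signals below the median of every array. Among the receptors of lymphocytes and dendritic cells that were not tested, Ccr6 had 39.3 and 32.8 at 3 months, 66.8 and 47.2 at 12 months and 78.0 and 57.2 at 19 months on the WT arrays, with 89.8 and 69.5 on the MT arrays. Both WT arrays of 3 months lay below the other 6, but only 2 of the 8 values exceeded the median of their array.

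Counted over the 15 tested members, the groups did not overlap for 8 (53.3%) between MT and WT mice at 3 months, 3 (20%) between 12 and 3 months, 8 (53.3%) between 19 and 3 months and 6 (40%) between 19 and 12 months. The same held for 45.7%, 40.1%, 48.2% and 41.3% of all tested probe sets, so that these shares were near the background or below it. The median log2 difference of the members was -0.0070 in MT mice, 0.046 at 12 months and 0.22 at 19 months against 3 months, and 0.43 between 19 and 12 months. The median over all probe sets was 0.018, -0.0034, 0.024 and 0.034. Of the 15 members 7, 8, 10 and 11 lay above 0 in these 4 comparisons. These are descriptions, and no test of the group of genes was made.

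Of the atypical and decoy receptors, which bind chemokines without the usual G protein signal, Ackr1, Ackr2 and Ackr4 were tested and 0 were called, the lowest being Ackr2 with a log2 difference of -1.22 in MT mice (limma, adjusted p = 0.364). Of 13 tested signalling genes 0 were called, and 8 lay above 0 in MT mice, 8 at 12 months and 8 at 19 months. The kinase gene Grk6, whose product switches off receptors, had a log2 difference of 0.64 in MT mice (0.209), and Rgs2, a brake on G proteins, had 0.84 at 19 months (0.212), followed by the GTPase gene Rac2 with 1.26 (0.263). In MT mice the other named genes were Pik3r5 (-0.80), at 12 months Elmo1 (-0.80) and Pik3r5 (-0.65), and between 19 and 12 months Rgs2 (0.73) and Elmo1 (1.08).

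Of 9 tested NF-kB and TNF response genes 0 were called, and 6 lay above 0 in MT mice, 5 at 12 months and 7 at 19 months. Bcl3, a nuclear partner of NF-kB, came nearest, with a log2 difference of 0.77 in MT mice (limma, adjusted p = 0.0850), 1.05 at 12 months (0.129) and 0.80 at 19 months (0.170) against the same 2 WT arrays of 3 months. Birc3 had -0.52 in MT mice, Vcam1 0.71 at 12 months, and the adhesion molecule gene Icam1 1.02 at 19 months (0.217) and 0.96 between 19 and 12 months, where Vcam1 had -0.87, none of which passed. Sele, Tnf, Il6 and Traf1 were below the median of every array. The platelet chemokines Pf4 and Ppbp had log2 differences of 0.59 and 0.48 in MT mice, 0.66 and 1.27 at 12 months and 0.87 and 0.67 at 19 months, and the lowest adjusted p among these was 0.295.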

How the data were processed

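Liver RNA was measured on 8 Affymetrix arrays. The authors deposited linear MAS5 signal intensities, scaled to equal trimmed means. The version of MAS5 is not given in the sources used. Presence calls, which the methods filtered on, were not used. Of 45101 probe sets, 64 controls were left out. Of the others, 34945 carried 1 gene symbol in the platform annotation, and only these were named. A total of 4 probe sets that name several chemokine genes were left out.

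Signals below 1 were set to 1 and put on the log2 scale. The upper 50% of probe sets by mean log2 signal (at least 6.18) was fitted with limma 3.58.1 (lmFit, eBayes, variance trend; R 4.3.3). A single fit held all 4 groups, with 4 residual degrees of freedom and 5.37 prior ones. The p-values were two-sided. Benjamini-Hochberg adjustment ran over all 22519 probe sets of a comparison, and calls were made under 0.05. An exact permutation test of 2 against 2 arrays cannot go below p = 0.333, so none was used. The fit was tested on simulated data. Fold changes are ratios of geometric means. Array number limits the precision.

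Members and gene lists were chosen with earlier results of these data known. Members were named with all values if called, or with an unadjusted p under 0.05, no overlap and over 1.5-fold, or if among the 5 of highest mean signal, with receptors or ligands of these. Of each pathway list the 2 genes of lowest p were named. Other members were added after their values were seen. No array was imputed. Promoter windows came from RefSeq (GRCm38.p6), and 1 further motif that was searched is not reported here. Alternatives covered normalization, log offset, filter, groups, trend, test, block, probe set and each array in turn. Tables were handled with Python 3.11.15, pandas 2.3.3 and numpy 2.4.6, and plots drawn with matplotlib 3.10.9.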

Additional observations from a re-analysis of the deposited data

How the results depend on the processing

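Of 60 log2 differences (15 tested members in 4 comparisons), 28 changed sign when 1 array was left out, the largest of them (Cxcl9 at 19 against 3 months) going from -0.68 to 0.11 without array 1 of 3 months. The 8 differences named for their low p kept their sign under all alternatives run. They were chosen among groups that did not overlap, so leaving out 1 array could not reverse them. Fits without the filter or the variance trend, or of 2 groups only, left these estimates unchanged. The kept signs therefore do not show stability. The medians near 0 did not keep their sign. In MT mice the median ran from -0.11 to 0.038 with 1 array left out. At 12 against 3 months the median was -0.038 over all 48 members with no filter. The count of members called was 0 in all 4 comparisons under quantile normalization, an offset of 16 before the log, no filter, fits of 2 groups only and a fit without the variance trend. The methods' t-test with its 1.5-fold limit, before adjustment, called 1 member (Ccl9) in MT against WT mice, 1 (Ccl27a) in 19 against 3 months and 1 (Cxcl9) in 19 against 12 months, with 3.95%, 3.33% and 2.33% of all probe sets. Leaving out each array in turn gave 0 to 1 members called in 19 against 3 months and in 19 against 12 months. The 1 was Cxcl13 without array 1 of the 19-month group, and the remaining comparisons kept a count of 0. The median log2 difference of the tested members ranged from -0.24 to 0.049 at 12 against 3 months, the lowest without array 1 of 12 months. It ranged from 0.15 to 0.50 at 19 against 3 months, the highest without array 2 of 19 months, and from 0.11 to 0.55 at 19 against 12 months, the lowest without array 2 of 12 months. Over all 48 members with no filter the last was 0.18. The cause was not tested.

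No clear pairing by replicate number was seen over all tested probe sets: correlations between the deviations of same-numbered arrays ran from -0.033 to 0.14. The highest was between the WT groups of 12 and 19 months, in which array 2 was the higher for both Cxcl1 and Ccl2. Whether same-numbered arrays shared a batch was not tested. A fit with the replicate number as a block gave 0 members called in all 4 comparisons. It gave 129, 3, 25 and 0 called probe sets, where the fit without the block gave 116, 3, 8 and 0. Fits of 2 groups gave 135, 12, 135 and 5, and a fit without the variance trend 9, 0, 1 and 0.

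Over 15 alternatives the log2 difference of Ccl9 in MT mice ran from -0.79 to -0.64 (limma, adjusted p 0.0584 to 0.495), at 12 months from -1.01 to -0.48 (0.142 to 0.853) and at 19 months from -0.81 to -0.45 (0.102 to 0.665). Cxcl12 in MT mice ran from 0.42 to 0.77, Cxcl9 in MT mice from -2.13 to -0.56, and Cxcl1 at 19 against 12 months from 0.87 to 1.93. Ccr2 at 12 months ran from -1.07 to -0.63 over 14 alternatives, since the mean of its probe sets did not pass the filter. With 2 arrays a group, a miss of the threshold does not show that values were alike. Signals near or below the array median limit what can be said of most receptors.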

Other observations

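Other genes also differed between both arrays of the 19-month WT group, and those named here were chosen after their values were seen. Among the 25 probe sets with the largest excess of array 2 over array 1 of that group, Cxcl13, the macrophage scavenger receptor Marco and the acute phase gene Saa1 each had 2. For Marco, as for Cxcl13, array 2 (1211) stood above the other 7 arrays, which ran from 81.8 to 185. Saa1 stood at 5742 and 6011 on array 2 and at 920 and 1002 on array 1, while the other 6 arrays lay between, at 1496 to 3333. Lcn2, which binds bacterial iron carriers, was at 4553 against 673. Igfbp1 was at 13439 against 1748, with 3118 to 15453 on the other 6 arrays, so that array 1 was the lowest of the 8. Ccl2 was at 138 against 6.37 on the same arrays, and Cxcl1 at 3782 against 1812.

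Some members that reached an unadjusted p under 0.05 in the fit without a filter had been kept out by it, and none was called (limma). They were Cxcr2 in MT mice, Cxcr5 at 12 against 3 months, and Ccr3 and Ccl11, a receptor of eosinophils and one of its ligands, at 19 against 12 months. In each the lower group held signals far below the array medians: 11.2 and 8.86 for Cxcr2, 4.68 on 1 array for Cxcr5, 8.28 and 4.62 for Ccr3, and 6.95 and 2.85 for Ccl11. No size of these differences is given for that reason.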
